A study of Rattus norvegicus with 24 samples.

Results

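Ager, Pdpn, Rtkn2, Aqp5, Hopx, Cav1, Clic5 and Emp2 are 8 genes that mark the alveolar type 1 cell, chosen by name with earlier results of these data known. They were followed across lung RNA of 24 male Fischer rats (F344/DuCrl, 3 months old when bought, kept 2 to a cage). All 8 were found among the 30043 genes of the count table, and all 8 were among the 13322 genes with enough counts to be tested. The study asked how cigarette smoke alters the response of the lung to crystalline silica, a mineral dust. Its 4 groups of 6 rats spent 29 weeks in whole-body inhalation chambers. The air group received air throughout. The silica group received Min-U-Sil5 silica at 15 mg/m3 for 6 h a day on 5 days of week 3 and air in all other weeks. The smoke group received cigarette smoke for 3 h on Tuesdays and Fridays, at 40 mg/m3 in week 1 and 80 mg/m3 from week 2, with air in week 3. The combined group received smoke on the same days, at 45 mg/m3 in week 1 and 80 mg/m3 afterwards, and the same silica exposure in week 3. RNA came from a piece of whole lung, so every value is an average over all cells of that piece.

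Type 1 cells are the thin, flat cells that cover most of the inner surface of the alveolus and form the air side of the barrier across which gas is exchanged. In the adult lung they arise from alveolar type 2 cells, the cuboidal cells that make surfactant and divide to replace lost type 1 cells after injury. Ager encodes the receptor for advanced glycation end products, which sits on the basal face of the type 1 cell, and Pdpn encodes podoplanin, a mucin-like protein of its apical membrane. Aqp5 encodes a water channel and Clic5 a chloride intracellular channel protein that is tied to the actin cytoskeleton. Cav1 encodes caveolin-1, the coat protein of the flask-shaped membrane pits called caveolae, and Emp2 a membrane protein with 4 passes through the membrane. Hopx encodes a small homeodomain protein that does not bind DNA itself, and Rtkn2 encodes rhotekin 2, a relative of the signalling protein rhotekin. Several of them are not confined to type 1 cells: Cav1 is abundant in blood vessel endothelium, and Pdpn is also made by lymphatic endothelium and mesothelium.

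The libraries were uneven in depth. Totals ran from 21629 counts in smoke 2 to 4687805 in air 6, with 280484 in silica 4 and at least 1084815 in the remaining 22. Haemoglobin took 56% of the counts in smoke 2 against 0.249% to 1.54% elsewhere. Only 11 of its counts fell on the 8 genes, 0.0509% of its total against 0.422% to 0.651% in the other 23 libraries. The libraries labelled silica 1 and smoke 1 went against their labels in Mmp12, a macrophage protease gene: it stood at 3.2 CPM (counts per 1000000) in silica 1 against 57.4 to 75.8 CPM in the other silica libraries, and at 57.2 CPM in smoke 1 against 0 to 11.8 CPM in the other smoke libraries. Whether these 2 labels were exchanged cannot be told from these values, and an exchange would change the silica and smoke values given below. All 24 libraries were kept in the analysis under their labels, and results that rest on silica 1, smoke 1 or smoke 2 are also given without these 3, over what are called the 21 other libraries. These 3 were picked from values of these same data. Leaving out silica 1 and smoke 1, which look unlike their groups, can by itself widen the differences of silica from air and of combined from smoke. Results over the 21 other libraries are therefore not separate evidence. CPM here are scaled by the TMM factors of edgeR, and compare a gene between libraries but not one gene with another.

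The stretches of sequence just upstream of 4 of the genes are shown because these genes stand at the ends of the range of change in the combined group. Rtkn2 and Cav1 fell the most relative to air, while Aqp5 and Emp2 had the smallest differences from air and did not pass the test against air or against smoke over the 24 libraries. They are the bases before each gene's start in RefSeq's rat assembly GRCr8, read 5′ to 3′ along the gene's strand, at chr20:20608864-20609112 (minus strand), chr4:46606288-46606537 (plus strand), chr7:132601278-132601527 (plus strand) and chr10:5866619-5866868 (plus strand). Capitals mark matches to either of 2 motifs on either strand, the GC box bound by Sp1-type factors (GGGCGG, or CCGCCC on the other strand) and the TATA box (TATAAA, or TTTATA on the other strand).
Rtkn2: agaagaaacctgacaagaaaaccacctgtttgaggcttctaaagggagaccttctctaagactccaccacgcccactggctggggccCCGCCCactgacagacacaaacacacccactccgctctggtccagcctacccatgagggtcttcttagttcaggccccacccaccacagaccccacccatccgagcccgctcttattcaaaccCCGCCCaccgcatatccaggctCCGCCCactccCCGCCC
Cav1: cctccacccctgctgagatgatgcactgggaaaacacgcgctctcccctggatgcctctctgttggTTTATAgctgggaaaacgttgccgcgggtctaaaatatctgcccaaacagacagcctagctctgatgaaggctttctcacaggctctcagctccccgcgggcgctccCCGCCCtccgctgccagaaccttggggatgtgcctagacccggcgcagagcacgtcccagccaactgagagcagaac
Aqp5: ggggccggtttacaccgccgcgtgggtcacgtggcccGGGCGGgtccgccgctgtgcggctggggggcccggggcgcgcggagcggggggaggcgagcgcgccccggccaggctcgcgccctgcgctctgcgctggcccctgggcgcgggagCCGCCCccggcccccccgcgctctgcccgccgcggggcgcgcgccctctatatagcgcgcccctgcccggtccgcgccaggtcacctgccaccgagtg
Emp2: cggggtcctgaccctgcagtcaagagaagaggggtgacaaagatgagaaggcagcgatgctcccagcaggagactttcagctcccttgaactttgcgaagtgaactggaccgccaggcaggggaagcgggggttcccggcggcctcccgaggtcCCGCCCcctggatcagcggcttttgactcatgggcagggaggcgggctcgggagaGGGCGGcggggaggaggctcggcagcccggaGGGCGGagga
The GC box letters occurred 4 times upstream of Rtkn2, 3 times upstream of Emp2, 2 times upstream of Aqp5 and 1 time upstream of Cav1, and 30.5% of the 33469 rat windows of 250 bases held at least 1 match. The TATA letters occurred once, upstream of Cav1, and in 12.9% of all windows. Neither CACTTG, the core bound by NKX2-1 and its relatives (11.7% of windows), nor CATTCC, the core bound by TEAD factors (12.1% of windows), was present in any of the 4 on either strand. Of the 4 genes not shown, the windows of Pdpn and Clic5 held 3 and 1 GC box matches and those of Ager and Hopx held 0.

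In the combined group, 4 of the 8 genes fell relative to air and none rose. Hopx fell by 16.9%, Pdpn fell by 28.2%, Cav1 fell by 29.7% and Rtkn2 fell by 33.6%. All 8 log2 fold changes were negative, with a median of -0.26 against -0.009 over all genes tested. The background was high in this comparison, where 22.4% of all genes were called in either direction and 10.8% were called lower (adjusted p under 0.05 by edgeR's quasi-likelihood test). Groups next to each other in the order of a gene's means, given below for each gene, did not pass the test over the 24 libraries in any comparison made, and smoke and silica were not compared with each other. No member passed after smoke alone, and none passed after silica alone over the 24 libraries. Since the tissue is whole lung, fewer type 1 cells and less of these transcripts per cell cannot be told apart.

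**Figure D1:**
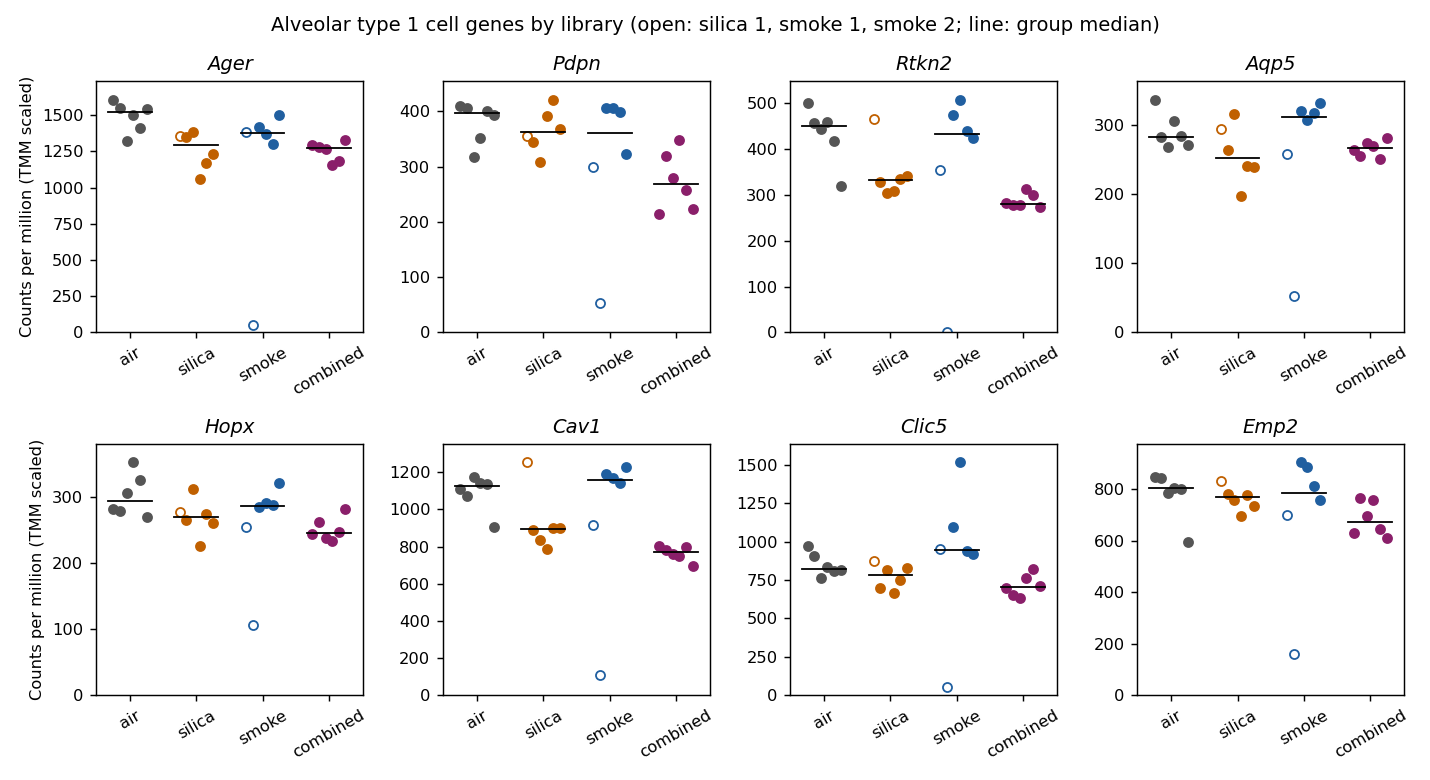
Level of each gene in every library, in TMM-scaled CPM (vertical axes start at 0), by group; points are libraries, lines are group medians, and open points are silica 1, smoke 1 and smoke 2. The 6 combined libraries lie below all 6 air libraries for Rtkn2 (274 to 312 CPM against 320 to 501 CPM) and Cav1 (698 to 804 CPM against 904 to 1174 CPM), and smoke 2 is the lowest smoke library in all 8 panels.

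The surface receptor Ager stood at 1489 ± 103 CPM in air (SD, n = 6), with a lowest, median and highest library of 1323, 1522 and 1607 CPM. In silica it ran from 1062 over a median of 1291 to 1387 CPM, and in the combined group from 1156 over 1274 to 1325 CPM. The 5 smoke libraries other than smoke 2 ran from 1298 over 1383 to 1504 CPM, while smoke 2 held 1 count. By mean the order was air, smoke (1393 ± 75.1 CPM, SD, n = 5), silica (1259 ± 128 CPM, SD, n = 6) and combined (1251 ± 66.2 CPM, SD, n = 6). The lower levels in silica and combined overlapped the lowest air library, and the 2 groups did not differ beyond their spread. Relative to air the log2 fold change was -0.24 ± 0.16 (standard error) after silica and -0.25 ± 0.16 in the combined group (edgeR adjusted p = 0.467 and 0.288). Over the 21 other libraries the same differences were -0.27 and -0.26 ± 0.07 and both passed (edgeR adjusted p = 0.0175 and 0.00643), and leaving out smoke 2 alone was enough for the combined group (0.0118). The difference between the combined and silica groups was -0.01, with a 95% interval of -0.35 to 0.32.

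Of the receptor's known ligands, 2 rose. S100a8 and S100a9, the calprotectin subunits released mainly by neutrophils, rose in the combined group by 2.29 ± 0.30 and 3.35 ± 0.40 on the log2 scale relative to air (edgeR adjusted p = 5.35e-06 and 1.79e-06). They also rose after silica alone, by 1.82 ± 0.32 and 2.88 ± 0.40 (0.00174 and 0.000317). Hmgb1, a nuclear protein that binds the receptor once it is released, stood at 0.08 ± 0.27 in the combined group (0.888). Its level was low, at 4.28 to 8.61 CPM in air, 0 to 14.6 CPM in silica and 4.13 to 9.62 CPM in the combined group. Thus 2 of 3 tested ligand genes rose, and S100b was too low to be tested. In either direction, 22.4% of all genes were called in the combined group relative to air and 3.17% after silica. Of 6 neutrophil markers, which include both S100 genes, 4 rose after silica and 5 in the combined group, and the part of neutrophils in the ligands' rise was not tested.

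Podoplanin mRNA fell in the combined group and stood close to its air level after silica alone. Pdpn ran from 317 over a median of 398 to 410 CPM in air and from 309 over 362 to 421 CPM in silica, 2 ranges that nearly coincide. In the combined group it ran from 215 over 269 to 348 CPM, with 4 of 6 libraries below the lowest air library. The smoke libraries other than smoke 2 ran from 300 over 399 to 406 CPM. By mean the order was air, smoke (366 ± 51.4 CPM, SD, n = 5), silica (365 ± 38.5 CPM, SD, n = 6) and combined. The mean of 274 ± 52.8 CPM (SD, n = 6) in the combined group compares with 380 ± 37.2 CPM in air (log2 fold change -0.48 ± 0.12, edgeR adjusted p = 0.00514). The difference after silica was -0.06 ± 0.12 (0.864). Against silica the combined group differed by -0.42 ± 0.12, the largest such difference among the 8 genes, and it did not pass (edgeR adjusted p = 0.136). Against smoke the fall was -0.40 ± 0.13 (0.0348), a call lost when smoke 3, 4 or 5 or combined 1, 3, 5 or 6 was left out (up to 0.12) and kept over the 21 other libraries at -0.51 (0.00188).

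Other cell types that make podoplanin were followed beside it. Of 5 lymphatic endothelial markers 1 fell in the combined group, Lyve1, a hyaluronan receptor, at a log2 fold change of -0.65 ± 0.15 (adjusted p by edgeR = 0.00275). Summed over the list, lymphatic markers ran from 243 to 363 CPM in the combined group and from 356 to 433 CPM in air. Of 4 tested mesothelial markers none passed, at a median of -0.70 and summed levels of 30.2 to 108 CPM against 43.6 to 162 CPM in air. No marker of either list was at 0 in any library other than smoke 2. Of all genes, 10.8% were called lower in the combined group relative to air. The part of these cells in the fall of Pdpn was not tested.

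The water channel gene Aqp5 had the smallest log2 fold change of the 8 between the combined group and air. It ran from 267 over 283 to 336 CPM in air and from 251 over 266 to 280 CPM in the combined group, and the ranges overlap. In silica it ran from 197 over 252 to 315 CPM, the lowest value being that of the shallow library silica 4, and in the 5 deeper smoke libraries from 257 over 316 to 331 CPM. Means were 306 ± 29 CPM in these smoke libraries (SD, n = 5), 291 ± 25.8 in air, 265 ± 11 in combined and 258 ± 42.3 in silica (SD, n = 6). The combined group stood at -0.13 ± 0.10 (log2 scale) against air (edgeR adjusted p = 0.369), with a 95% interval of -0.33 to 0.07. Over the 21 other libraries the combined group was lower than smoke (-0.28, 0.0193), with all 6 combined libraries below the 4 smoke libraries.

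Clic5 was lower in the combined group than after smoke alone, where it had its highest mean. It ran from 761 over 823 to 970 CPM in air and, without smoke 2, from 918 over 953 to 1517 CPM in smoke, where smoke 4 was the highest. In silica it ran from 664 over 785 to 875 CPM and in the combined group from 631 over 705 to 820 CPM. By mean the order was smoke (1085 ± 252 CPM, SD, n = 5), air (848 ± 75.8), silica (773 ± 81.5) and combined (713 ± 71.2 CPM, SD, n = 6). The difference from air in the smoke group, 0.29 ± 0.16 on the log2 scale, did not pass (edgeR adjusted p = 0.669), nor did it over the 21 other libraries at 0.40 ± 0.11 (0.174). The combined group was lower than smoke (-0.54 ± 0.16, 0.0254), and lower at -0.67 over the 21 other libraries (7.3e-05), where no combined library reached the lowest smoke library. The call over the 24 libraries was lost without smoke 3, smoke 4, combined 1, combined 2 or combined 3 (up to 0.125). Relative to air the combined group stood at -0.25 ± 0.16 (0.264).

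Caveolin-1 mRNA was lower in all 6 combined libraries than in any air library. Cav1 ran from 904 over 1126 to 1174 CPM in air and from 698 over 772 to 804 CPM in the combined group, which is -0.51 ± 0.15 on the log2 scale (adjusted p by edgeR = 0.0134). In silica the library labelled silica 1 held 1254 CPM, above every air library, and the other 5 held 786 to 902 CPM, below every air library. In smoke the 4 libraries other than smoke 1 and smoke 2 held 1145 to 1230 CPM, and smoke 1 held 914 CPM. By mean the order was smoke (1129 ± 124 CPM, SD, n = 5), air (1091 ± 98), silica (928 ± 166) and combined (766 ± 39.3 CPM, SD, n = 6). After silica the difference was -0.23 ± 0.15 and did not pass (0.438), and over the 21 other libraries it was -0.34 ± 0.07 and passed (0.0013). The fall in the combined group relative to smoke was -0.49 ± 0.15 (0.0319), lost without any single one of smoke 3 to 6 or of the combined libraries (up to 0.0996), and -0.64 over the 21 other libraries (3.72e-07). Between combined and silica the difference of -0.28 ± 0.15 did not pass (0.425), and it was -0.18 ± 0.07 over the 21 other libraries (0.361).

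Other genes of the caveola fell with Cav1. Of 6 tested, 5 fell in the combined group relative to air and 1, Pacsin2, did not pass, with a median of -0.47. In this comparison 22.4% of all genes were called in either direction and 10.8% were called lower. Cav2, the partner of caveolin-1 in the coat, fell by 0.75 on the log2 scale (SE 0.14, edgeR adjusted p = 0.000353). Ehd2, an ATPase at the neck of the caveola, stood at -0.44 ± 0.09 (0.000841). The cavin genes Prkcdbp, Sdpr and Ptrf, now named Cavin3, Cavin2 and Cavin1, encode the outer coat, and stood at -0.60 ± 0.14 (0.00201), -0.50 ± 0.12 (0.00291) and -0.34 ± 0.10 (0.0131). After silica alone Ehd2 (-0.39 ± 0.09, 0.0196) and Prkcdbp (-0.50 ± 0.14, 0.048) fell, and no caveola gene passed after smoke in either set of libraries. Over the 24 libraries, 1.01% of all genes were called lower after silica. Over the 21 other libraries 4 of the 6 fell after silica and 5 in the combined group, against 5.85% and 13.5% of all genes called lower.

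Blood endothelium, the other main site of caveolae in the lung, moved in the same direction. Of 11 endothelial markers 7 fell in the combined group and none rose, at a median of -0.41, among them Cldn5, a tight junction protein (-0.82 ± 0.13, edgeR adjusted p = 6.33e-05), and Pecam1, an adhesion protein of endothelial junctions (-0.41 ± 0.09, 0.00121). Their summed level ran from 3295 to 3655 CPM in the combined group and from 4277 to 5374 CPM in air, with no marker at 0 in any library other than smoke 2. After silica 0 of 11 passed, and 6 of 11 fell over the 21 other libraries. Of all genes, 10.8% were called lower in the combined group relative to air. After silica, 1.01% were called lower over the 24 libraries and 5.85% over the 21. The summed level of the 8 type 1 genes ran from 4402 to 4595 CPM in the combined group and from 5110 to 6065 CPM in air. The part of endothelial RNA in the fall of Cav1 was not tested.

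Emp2 did not pass against air in any group. It ran from 596 over 805 to 848 CPM in air, where air 6 stood below the other 5 (784 to 848 CPM), and from 609 over 673 to 765 CPM in the combined group. Silica libraries ran from 696 over 769 to 831 CPM, and smoke libraries other than smoke 2 from 700 over 814 to 905 CPM. By mean the order was smoke (813 ± 85.7 CPM, SD, n = 5), air (781 ± 94.1), silica (764 ± 45.5) and combined (685 ± 66.7 CPM, SD, n = 6). The combined group stood at -0.19 ± 0.12 on the log2 scale against air (edgeR adjusted p = 0.272) and at -0.20 against smoke (0.297). The latter difference was -0.31 over the 21 other libraries and passed there (0.0113).

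Hopx fell modestly in the combined group. It ran from 270 over 293 to 352 CPM in air, from 226 over 270 to 312 CPM in silica and from 233 over 245 to 282 CPM in the combined group. The smoke libraries other than smoke 2 ran from 254 over 288 to 321 CPM, within the air range but for smoke 1. By mean the order was air (302 ± 31.7 CPM), smoke (288 ± 23.8 CPM, SD, n = 5), silica (269 ± 28) and combined (251 ± 18.2 CPM, SD, n = 6). The fall from air to combined of -0.27 ± 0.09 on the log2 scale passed (edgeR adjusted p = 0.0268), with overlapping libraries. This call was lost when air 4, air 5 or combined 1, 3, 4 or 5 was left out (up to 0.0823). After silica the difference was -0.15 ± 0.09 (0.376).

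Rtkn2 showed the largest fall of the 8 genes and the one that held most widely. It ran from 320 over 451 to 501 CPM in air, where air 6 was the lowest, and from 274 over 281 to 312 CPM in the combined group. The library labelled silica 1 held 465 CPM, and the other silica libraries held 304 to 342 CPM. Smoke libraries other than smoke 2, which held 0 counts of Rtkn2, ran from 354 (smoke 1) over 440 to 508 CPM. Ordered by mean, the groups were smoke (440 ± 57.8 CPM, SD, n = 5), air (433 ± 61.7 CPM, SD, n = 6), silica (347 ± 59.6) and combined (287 ± 14.8 CPM, SD, n = 6). In the combined group the log2 fold change was -0.59 ± 0.13 relative to air (edgeR adjusted p = 0.00157) and -0.58 ± 0.14 relative to smoke (0.00561). Both calls held whichever single library was left out, with adjusted p of at most 0.0273 against smoke. After silica the difference of -0.31 ± 0.13 did not pass (0.203). It passed without silica 1 (0.0397) and over the 21 other libraries, at -0.42 ± 0.08 (0.0015). Between combined and silica it was -0.28 ± 0.13 (0.365), and -0.18 ± 0.09 over the 21 other libraries (0.473).

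Transcription factors and co-activators that are known to set type 1 identity were followed beside these genes. Of 6, 3 fell and 1 rose in the combined group relative to air. In that comparison 22.4% of all genes were called in either direction and 10.8% were called lower. Wwtr1, which encodes the co-activator TAZ, fell by 0.36 on the log2 scale (SE 0.10, edgeR adjusted p = 0.011). Tead1, a DNA-binding partner of YAP and TAZ, stood at -0.37 ± 0.11 (0.0121) and the Krüppel-like factor Klf5 at -0.41 ± 0.13 (0.0231). Nkx2-1, a homeodomain factor needed by both type 1 and type 2 cells, rose by 0.92 ± 0.18 (0.000373). Wwtr1 also fell after silica, by 0.39 on the log2 scale (SE 0.11, 0.036), and over the 21 other libraries it stood at -0.51 ± 0.09 (0.000655). Nkx2-1 rose after smoke by 0.87 ± 0.18 (0.0375), a call that was not kept over the 21 other libraries (0.82 ± 0.19, 0.0588). Its difference after silica was 0.56 ± 0.18 (0.084), and it passed over the 21 other libraries at 0.62 ± 0.18 (0.0275). Relative to smoke the combined group was lower in Tead1, at -0.46 ± 0.11 (0.00731), and in Wwtr1, at -0.32 ± 0.11 (0.05 after rounding, just under the threshold). These differences from smoke were, over the 21 other libraries, -0.55 ± 0.10 (0.000338) and -0.39 ± 0.10 (0.00479). The shares of all genes called lower than smoke were 5.57% over the 24 libraries and 10.2% over the 21. The part of cells other than type 1 cells in the changes of these 6 genes was not tested.

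**Figure D2:**
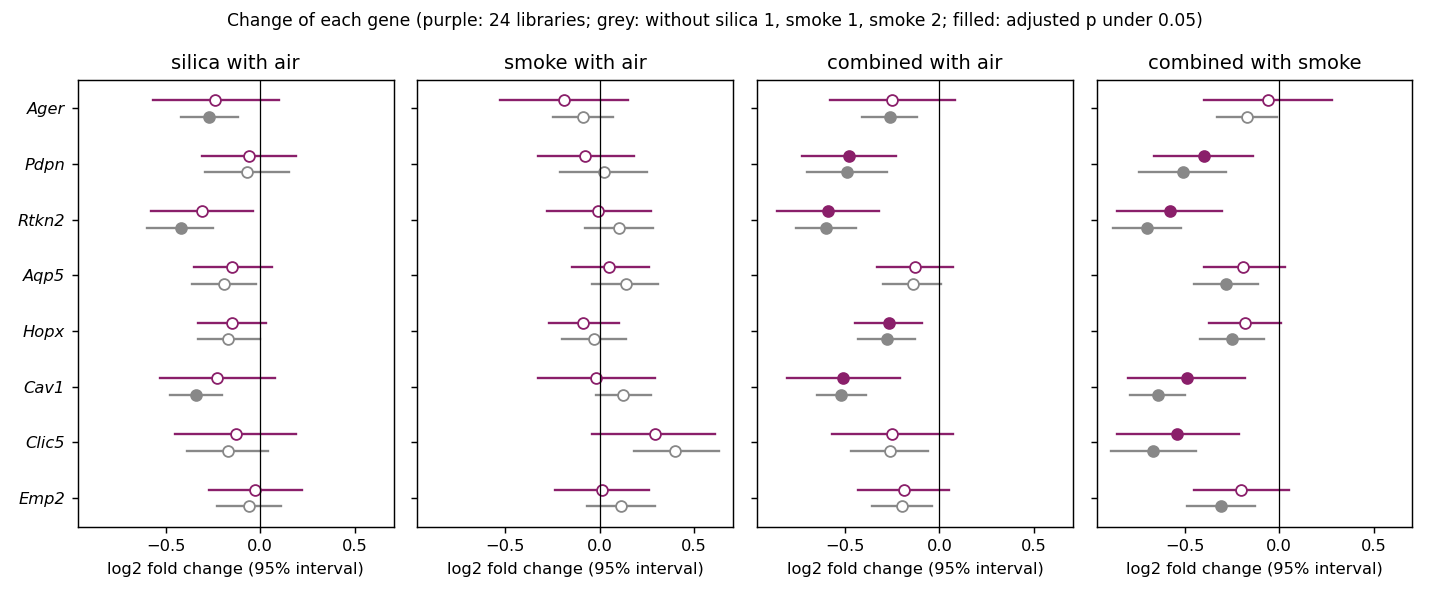
Log2 fold change of each gene (horizontal axis) with its 95% interval in 4 comparisons, over 24 libraries (purple) and without silica 1, smoke 1 and smoke 2 (grey); filled points have adjusted p under 0.05 by edgeR. Rtkn2, Cav1 and Pdpn are filled in both colours against air and against smoke in the combined group. Against air they stand at -0.59, -0.51 and -0.48 over 24 libraries. All points of the smoke with air panel are open.

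Counted over the 8 genes, silica alone left 0 of 8 genes called over the 24 libraries, where 3.17% of all genes were called and 1.01% were called lower, although all 8 log2 fold changes were negative with a median of -0.15 (all genes -0.004). By edgeR, 1 of the 8, Rtkn2, had an unadjusted p under 0.05, as had 18.2% of all genes. Over the 21 other libraries 3 fell, Ager, Rtkn2 and Cav1, where 11.8% of all genes were called and 5.85% called lower. The 5 remaining silica libraries lay below all air libraries for 1 of the 8, Cav1, and for 2.71% of all genes. Smoke alone left 0 of 8 called in both sets of libraries, against 0.150% and 0.168% of all genes. None had an unadjusted p under 0.05 over the 24 libraries (8.29% of all genes had), and Clic5 had one over the 21 (9.01%). The median was -0.02, with 5 of 8 negative, and 0.11 over the 21 other libraries, with 2 of 8 negative.

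In the combined group the 4 falls relative to air became 5 over the 21 other libraries, with Ager added and Rtkn2 at -0.60, Cav1 at -0.52, Pdpn at -0.49 and Hopx at -0.28, against 25.6% of all genes called and 13.5% called lower there. Clic5 (edgeR adjusted p = 0.0502) and Emp2 (0.0603) stood just outside. The 6 combined libraries lay below all 6 air libraries for 2 of the 8, Rtkn2 and Cav1, as they did for 4.93% of all genes. Neither the combined nor the air group includes any of the 3 doubted libraries, which enter this comparison through the shared estimate of spread and the choice of genes tested. Relative to silica 0 of 8 passed in either set of libraries (0.248% and 0.293% of all genes), and 2, Pdpn and Rtkn2, had an unadjusted p under 0.05, as had 12.9% of all genes.

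Relative to smoke, 4 of 8 fell in the combined group (Rtkn2, Clic5, Cav1 and Pdpn), with a median of -0.30, where 12.9% of all genes were called and 5.57% were called lower. Over the 21 other libraries 7 of 8 fell, all but Ager (-0.17, edgeR adjusted p = 0.123), where 20.1% were called and 10.2% called lower. There, all 6 combined libraries lay below the 4 smoke libraries for 5 genes, Rtkn2, Cav1, Clic5, Aqp5 and Hopx, against 8.17% of all genes. The comparisons with air and with smoke share the combined libraries, so they are not separate evidence. An interaction term tested whether both exposures together moved a gene by more or less than their separate log2 fold changes add up to. It was called for 0 of 8 genes and for 0 of 13322 by edgeR (977 genes and 0 of the 8 at an unadjusted p under 0.05), for 1 gene by DESeq2 and for 9 by voom with quality weights. The estimates were -0.41 for Clic5, -0.34 for Pdpn, -0.28 for Rtkn2, -0.26 for Cav1 and 0.18 for Ager, with 95% intervals that included 0. Again, over the 21 other libraries, 0 of 8 were called by edgeR, but 5 of 8 (Pdpn, Rtkn2, Cav1, Clic5 and Emp2) had an unadjusted p under 0.05, as had 8.82% of all genes. There the estimates were -0.49 for Clic5 (95% interval -0.80 to -0.18, edgeR adjusted p = 0.286), -0.44 for Pdpn (-0.76 to -0.12, 0.409), -0.30 for Cav1 (-0.50 to -0.10, 0.354) and -0.28 for Rtkn2 (-0.53 to -0.03, 0.496).

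Genes outside the 8 that are also known from type 1 cells were followed from a separate list. Of 16 tested, 9 fell and 1 rose in the combined group relative to air, at a median of -0.31. Of all genes, 22.4% were called in either direction there and 10.8% were called lower. The 4 with the smallest p were Cav2, given above and counted in the caveola list too, and 3 others. Col4a3, a chain of the basement membrane collagen, stood at -0.44 ± 0.09 (edgeR adjusted p = 0.000834), Igfbp2, a binding protein of insulin-like growth factors, at -0.87 ± 0.20 (0.00214) and the anchoring protein gene Akap5 at -0.57 ± 0.13 (0.00241). The exception was Cldn18, a claudin that seals alveolar epithelium and is made by type 2 cells as well, which rose by 0.52 ± 0.18 (0.0331), and it is named because it was the one that rose. The most abundant, Lmo7, stood at -0.07 ± 0.15 (0.798). Relative to smoke 3 fell, Cav2, Col4a3 and Spock2, a matrix proteoglycan (-0.42 ± 0.12, 0.0185). Over the 21 other libraries 7 fell and 1 rose. The shares of all genes called lower than smoke were 5.57% over the 24 libraries and 10.2% over the 21. None of the 16 passed after silica or smoke alone, and 5 fell after silica over the 21 other libraries, where none passed after smoke. Over those 21 libraries, 5.85% of all genes were called lower after silica.

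Genes that move salt and water across the alveolus did not all move in 1 direction. Of 9, 4 rose and 2 fell in the combined group relative to air, where 22.4% of all genes were called in either direction. Among those that rose, Atp1b1, the beta subunit of the sodium pump, stood at a log2 fold change of 0.64 ± 0.14 (adjusted p by edgeR = 0.00109), and the chloride channel gene Cftr at 0.63 ± 0.16 (0.00435). Aqp3, a channel for water and glycerol, was low, at 0 to 2.58 CPM in air, where 3 counts are 0.64 to 1.56 CPM, and at 3.33 to 11.9 CPM in the combined group. It rose (0.000601), with a fitted log2 fold change of 2.23 ± 0.45 that is imprecise at this depth. Aqp1, the water channel of capillary endothelium, fell by 0.49 on the log2 scale (SE 0.10, 0.00104), and the sodium channel subunit Scnn1g by 0.31 (SE 0.11, 0.0373).

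**Figure D3:**
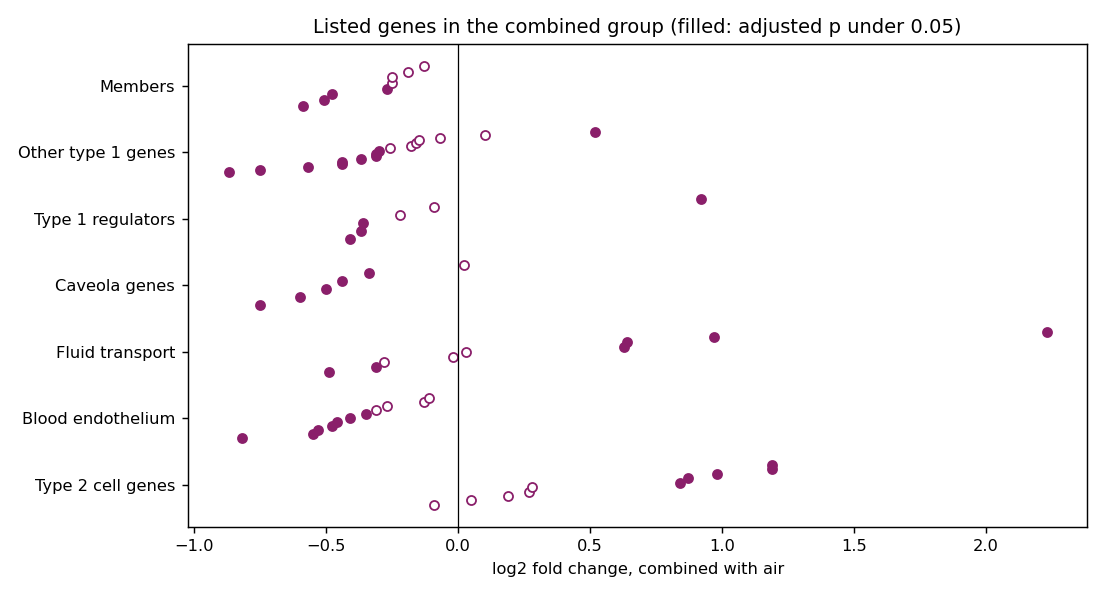
Log2 fold change of the combined group relative to air (horizontal axis) for the 8 genes and 6 related lists; each point is a gene, filled where adjusted p was under 0.05 by edgeR. Points of the type 1, caveola and blood endothelium lists lie mostly to the left of 0, at medians of -0.31, -0.47 and -0.41, while the filled type 2 points lie between Lpcat1 at 0.84 and Sftpd at 1.19.

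Several type 2 cell genes rose, in a comparison where 22.4% of all genes were called in either direction and 10.8% lower. Of 10, 5 rose, 5 did not pass and none fell in the combined group relative to air: the surfactant proteins Sftpd (1.19 ± 0.19, edgeR adjusted p = 5.54e-05) and Sftpa1 (1.19 ± 0.31, 0.0056), the lamellar body protein Lamp3 (0.98 ± 0.17, 0.000162), the surfactant protease Napsa (0.87 ± 0.15, 0.000156) and the phospholipid enzyme Lpcat1 (0.84 ± 0.14, 0.000116). Sftpc stood at 0.19 ± 0.28 (0.68). After silica 2 rose, Lamp3 (0.78 ± 0.17, 0.0134) and Lpcat1 (0.57 ± 0.14, 0.0278), and over the 21 other libraries 5 did. The shares of all genes called in either direction after silica were 3.17% and 11.8%. Among 6 tested genes of the transitional state between type 2 and type 1 cells, Lgals3, which macrophages also make, rose by 1.47 ± 0.24 (5.58e-05) and the claudin Cldn4 by 1.00 ± 0.25 (0.00444), while the cell cycle inhibitor Cdkn1a fell by 0.36 on the log2 scale (SE 0.11, 0.0155). Krt8, the keratin most used to define this state and named here for that reason, stood at 0.01 ± 0.08 (0.982). Cldn4 was low, at 2.25 to 3.95 CPM in air and 2.82 to 11.1 CPM in the combined group, and the ranges overlap.

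The counts of the 8 type 1 genes were set against those of the 10 type 2 genes within each library, a ratio that scaling between libraries does not touch. On the log2 scale it ran from -2.10 over a median of -1.71 to -1.47 in air and from -2.87 over -2.75 to -2.58 in the combined group, so all 6 combined libraries lay below all 6 air libraries. In the smoke libraries other than smoke 2 it ran from -2.19 over -1.53 to -1.47. The silica libraries other than silica 1 ran from -2.73 to -2.38, below every air library, and silica 1 stood at -1.41, above every air library. The lowest smoke value, -2.19, was that of smoke 1. The type 2 sum was higher (27455 to 32143 CPM in the combined group against 14861 to 23894 CPM in air) and the type 1 sum lower, and the ratio moves with both. The type 2 sum had a median of 30588 CPM in the combined group and 19313 CPM in air. Most of that rise was Sftpa1, at medians of 13695 and 5715 CPM, while Sftpc stood at 6810 and 6370 CPM. The ratio therefore leans on 1 surfactant gene.

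**Figure D4:**
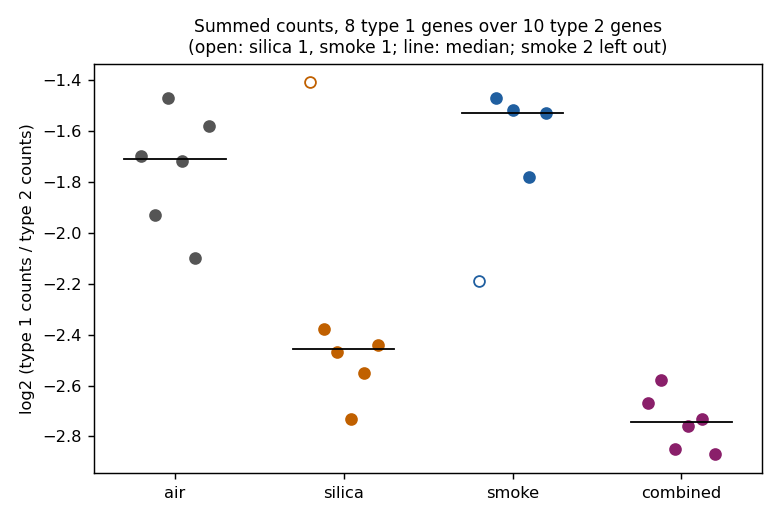
Log2 ratio of summed counts of the 8 type 1 genes to those of 10 type 2 genes (vertical axis) in each library, by group, without smoke 2; lines are medians and open points are silica 1 and smoke 1. The combined libraries lie at -2.87 to -2.58, below the air libraries at -2.10 to -1.47, and silica 1 lies apart from the other silica libraries at -1.41.

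Markers of other cells moved in the same comparison, where 22.4% of all genes were called in either direction. In the combined group relative to air, 4 of 5 fibroblast markers fell (Pdgfra by 0.66 on the log2 scale, SE 0.10, edgeR adjusted p = 4.28e-05), at summed levels of 1102 to 1224 CPM against 1245 to 5822 CPM in air (1245 to 1532 CPM without air 6), and 3 of 6 airway markers fell, at 1450 to 2951 CPM against 2060 to 3108 CPM. Of 6 neutrophil markers 5 rose, at 389 to 845 CPM against 86.2 to 151 CPM. Of 6 macrophage markers 2 rose and 1 fell, at 697 to 817 CPM against 475 to 775 CPM, and of 5 lymphocyte markers 1 rose, at 27.8 to 44.9 CPM against 26.2 to 52.5 CPM. Erythroid genes rose after smoke in 3 of 4, and in 0 of 4 over the 21 other libraries (0.150% and 0.168% of all genes called in either direction). All values are shares of a library, so a rise in one cell type's RNA lowers the share of the rest, and the part of this in the falls of the 8 genes was not tested.

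Over the 22 libraries other than smoke 2 and silica 4, the 28 pairs of the 8 genes were correlated in log2(CPM + 1) at Pearson's r of 0.24 to 0.95, with a median of 0.58. The libraries share 4 groups and differ in depth, so these are descriptions. The highest pair was Rtkn2 and Cav1 (r = 0.95, Spearman's coefficient 0.89), whose upstream sequences are shown above, and the lowest was Ager and Emp2 (r = 0.24, Spearman's coefficient 0.38). Among the 12418 genes that averaged 5 CPM or more, those most like Rtkn2 were Dlc1 (r = 0.96), a GTPase-activating protein, Akap2 (0.96) and LOC102556346 (0.95). Those most like Cav1 were Pdgfra (0.96), a receptor of alveolar fibroblasts, Dlc1 (0.95) and LOC102556346 (0.95). Ager was most like Dmpk (0.88), Git1 (0.87) and Gja5 (0.85), and Pdpn most like Crybg3 (0.90), Map4 (0.89) and Nf1 (0.89). Clic5 was most like Hipk2 (0.91), Epas1 (0.90), a hypoxia-inducible factor, and Nfat5 (0.90). The other 3 had looser company, led by Snx33 for Aqp5 (0.83), Thap11 for Hopx (0.78) and LOC102556061 for Emp2 (0.87). Rtkn2 and Cav1 thus shared 2 of their 3 nearest genes, and no other nearest gene was shared among the 8.

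Within each library the counts were also divided by those of Ager, and none of the other 7 genes had a lower ratio in all 6 combined libraries than in all 6 air libraries, as 70 of 13321 genes did (0.525%). Without air 6, the comparison gave 2 of the 7, Rtkn2 and Cav1, and 128 of 13321 genes (0.961%). This alternative was chosen after seeing the data.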

How the data were processed

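RNA-seq read counts per gene were analysed for 24 rat lung libraries, grouped by the treatment in the labels. The authors deposited whole-number counts, not normalized, in 1 table. HTSeq 0.11.2, HISAT2 2.1.0, SAMtools 1.8, Trimmomatic 0.35, bcl2fastq 2.19 and Cufflinks are the tools in the submitters' processing notes, which give no order. Per the labels' protocols, ribosomal RNA was removed and the kit keeps strand. Overlapping genes are uncertain, since build, annotation and strand setting were not given in the sources used here. Of 30069 lines, 26 duplicates were removed.

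In R 4.3.3, edgeR 4.0.16 kept 13322 genes by filterByExpr (minimum count 10), scaled libraries by TMM and fitted a quasi-likelihood model of 4 group means to 24 libraries (20 residual degrees of freedom). Tests were two-sided, with Benjamini-Hochberg adjusted p under 0.05 called. Values after ± are standard errors (the absolute log2 fold change over the square root of F) unless marked SD. A gene with 3 counts stands at 139 CPM in smoke 2 and at 0.64 to 10.7 CPM elsewhere. Libraries of 1 group differed by more than counting noise and count as separate animals per the labels. Chi-square per degree of freedom between them ran from 1.73 to 74.2. It was highest in pairs with smoke 2 (28.5 to 74.2) and with air 6 (13.7 to 22.6). Cage was not a term of the model, so rats that shared a cage were treated as independent. The fit was tested on simulated data.

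The members and the 16 other gene lists were chosen with earlier results of these data known. All 110 other listed genes were found, 6 under older symbols, and 104 were tested. Besides the 8 genes, the text names up to 4 called genes per list and comparison by smallest p, the most abundant one, and the 3 genes most correlated with each member. Where 5 or fewer were called all could be named, chosen after their values were seen. Alternatives were RLE scaling, no filter, DESeq2 1.42.0, limma 3.58.1 voom with quality weights, fewer libraries and leaving out each library. All upstream sequences were matched by symbol (8 of 8) in RefSeq's GRCr8. Those inside a gene's own span are not shown. One gene of the fluid transport list is counted but not reported here.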

Additional observations from a re-analysis of the deposited data

Results flagged for a closer look

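In 12 of 32 combinations of a gene and a group of 6, the highest or lowest library stood apart by Dixon's 95% criterion, which chance meets in about 1 of 20 groups. Smoke 2 accounts for 8 of them, 1 for each gene: it held 53 CPM of Ager, Pdpn, Aqp5 and Clic5, 106 CPM of Hopx and Cav1, 159 CPM of Emp2 and 0 CPM of Rtkn2. With 21629 counts in all, 53 CPM is a single count there, and 3 counts stand at 139 CPM.

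The library labelled silica 1 stood above the other silica libraries in Rtkn2, at 465 CPM against 304 to 342 CPM, and in Cav1, at 1254 CPM against 786 to 902 CPM. It also held 3.2 CPM of Mmp12 against 57.4 to 75.8 CPM. Air 6 stood below the other air libraries in Cav1, at 904 CPM, and in Emp2, at 596 CPM. Air 6 was the deepest library and had a quality weight of 0.269 in the weighted fit, near that of smoke 2 at 0.251.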

How the results depend on the processing

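Over 1480 alternative values for the 8 genes, 1407 kept direction and call, 28 lost a call, 13 gained one and 32 changed sign. Most of the 1407 were not called in either fit, since only 4 calls against air and 4 against smoke, all in the combined group, could be lost. Of 31 alternatives each, the call against smoke was lost in 10 for Cav1, 7 for Pdpn and 5 for Clic5. The call of Hopx against air was lost in 6. The falls of Rtkn2, Cav1 and Pdpn in the combined group relative to air held in all 31 alternatives. No paired analysis was possible because the replicate numbers follow accession order and pair nothing. The cause of each change below was not tested.

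Without silica 1, smoke 1 and smoke 2, members called went from 0 to 3 after silica and from 4 to 7 for combined with smoke, and all genes called from 422 to 1614 and from 1720 to 2751. With silica 4 and smoke 2 left out, all genes called were 12 instead of 20 after smoke and 58 instead of 33 for combined with silica. In the 12 libraries compared alone, all genes called were 91 after silica, 5 after smoke and 100 for combined with silica. DESeq2 called 189 genes after silica, 1665 instead of 2987 for combined with air, 823 for combined with smoke and 1 for the interaction. Voom with quality weights called 1 member and 909 genes after silica, 72 after smoke, 116 for combined with silica, 3368 for combined with smoke and 9 for the interaction.

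Leaving out each library in turn, members called ran from 0 to 1 after silica, 3 to 5 for combined with air and 1 to 4 for combined with smoke. All genes called ran from 124 (without silica 5) to 1183 (without silica 1) after silica, 6 (air 3) to 42 (air 6) after smoke, 2361 to 3270 for combined with air, 16 (silica 1) to 113 (air 6) for combined with silica and 905 (smoke 3) to 2271 (air 6) for combined with smoke.

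Signs changed only for values not called. After smoke, Pdpn, Rtkn2 and Cav1 became 0.02, 0.10 and 0.12 without the 3 libraries, Rtkn2 and Cav1 became 0.02 and 0.05 without silica 4 and smoke 2, and Emp2 became -0.007 in the 12 libraries and -0.0044 in the weighted fit. For combined with silica, Ager became 0.0068 without the 3 libraries and Aqp5 -0.02 without silica 4 and smoke 2. With single libraries left out, Ager ran from -0.05 to 0.02 and Aqp5 from -0.02 to 0.08 for combined with silica, Cav1 from -0.07 to 0.05, Emp2 from -0.05 to 0.06 and Rtkn2 from -0.08 to 0.05 after smoke, and Aqp5 from -0.09 to 0.03 and Hopx from -0.08 to 0.02 for the interaction.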
